A study of Mus musculus with 12 samples.

Results

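The 9 genes described here encode the adrenergic receptors of heart muscle and the proteins that carry or end their signal: Adrb1, Adra1a, Adra1b, Grk2, Grk5, Adcy5, Adcy6, Pde4d and Rgs2. They were chosen by name from the 33641 gene symbols of a transcript table, and the transcripts of each symbol were summed. All 9 had values, and all 9 passed the filter on low values (1 TPM or more in 3 or more libraries, where TPM is transcript abundance corrected for length and scaled to the same total in every library).

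Noradrenaline and adrenaline act on the heart through beta and alpha-1 adrenergic receptors. The beta-1 receptor couples to the stimulatory G protein and to adenylyl cyclases, which make cyclic AMP; cyclic AMP activates protein kinase A and thereby raises the rate and force of contraction. Alpha-1 receptors couple to Gq and phospholipase C. G protein-coupled receptor kinases (GRKs) phosphorylate active receptors and switch them off, phosphodiesterases degrade cyclic AMP, and RGS proteins shorten the active state of G proteins. A lower density of beta-1 receptors and a higher activity of GRK2 are well-known features of failing hearts.

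RNA came from the myocardium of male wild-type C57BL/6 mice, about 10 weeks old when treatment began and about 16 weeks old at the end. Hearts were either infarcted by surgery (myocardial infarction, MI) or sham-operated. From 2 weeks later the mice were given prednisone, a glucocorticoid drug, or its vehicle once a week for 6 weeks. Prednisone was injected intraperitoneally at 1 mg/kg at lights-on (Zeitgeber time 0), and the hearts were collected 24 hours after the final dose. There were 3 mice in each of the 4 groups (sham vehicle, sham prednisone, MI vehicle and MI prednisone), and the region of the heart that was sampled is not given. The samples are bulk tissue, in which fewer cells of a type and less RNA per cell cannot be told apart.

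TPM is a share of a library, so the number of reads behind a value is unknown. MI vehicle replicate 3 stood apart: 14307 genes reached 1 TPM in it, against 11690 to 12772 in the other 11 libraries, and its median gene lay 0.74 above the sham vehicle mean on the log2 scale. The 3 MI prednisone libraries also differed from the rest, in that a gene's deviation from the sham vehicle mean was related to the length of its transcripts, with Spearman correlations across genes from -0.40 to -0.26, against -0.12 to 0.24 in the other 9. The median of all tested genes moved by 0.39 between sham and MI under vehicle and by -0.41 between vehicle and prednisone in MI. The main changes of the 9 genes are therefore given as deposited and after median-ratio rescaling, which divides each library by its median ratio to the gene means; other changes are as deposited unless stated. Changes are differences of log2(TPM + 1) with their standard error (SE), tested with limma over 13158 genes and adjusted by the Benjamini-Hochberg method. Genes with an adjusted p under 0.05 are termed called.

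In sham vehicle hearts the order of the levels, in TPM, was Adcy6 at 25.9 ± 1.73 (SD, n = 3), Grk2 at 24.3 ± 2.84, Adra1b at 16.7 ± 2.76, Rgs2 at 15.1 ± 1.30, Adcy5 at 11.6 ± 0.869, Grk5 at 8.98 ± 0.356, Pde4d at 7.61 ± 0.907, Adrb1 at 7.01 ± 0.677 and Adra1a at 6.45 ± 0.847. Neighbours in this order overlapped between mice, except Grk2 and Adra1b, Rgs2 and Adcy5, Adcy5 and Grk5, and Grk5 and Pde4d.

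**Figure D1:**
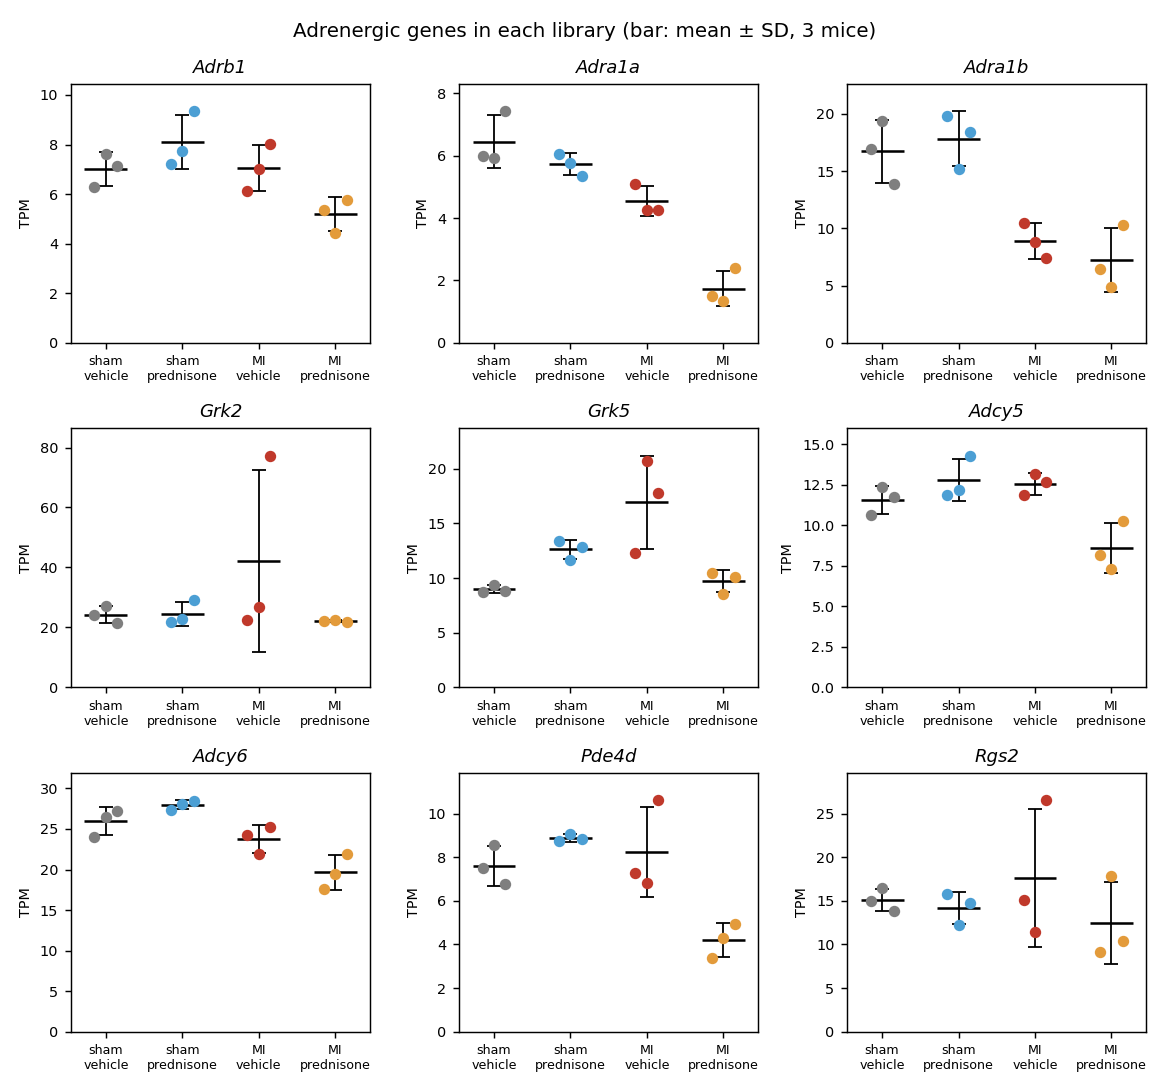
TPM of the 9 genes in each of the 12 libraries, by group; each point is 1 mouse, and the line and bar are the mean ± SD of 3 mice. Adra1a and Adra1b are lower in all 6 MI hearts than in all 6 sham hearts. Adrb1, Adra1a, Adcy5 and Pde4d are lowest in the 3 MI prednisone hearts, where Pde4d does not exceed 4.93 TPM.

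Adrb1 (chr19:56722199-56733113, GRCm38, plus strand) encodes the beta-1 receptor, the main beta receptor of the cardiomyocyte. Its TPM was 6.28, 7.61 and 7.15 in sham vehicle hearts and 7.23, 7.74 and 9.34 in sham prednisone hearts. It was 6.13, 7.03 and 8.0 in MI vehicle hearts and 5.37, 4.43 and 5.75 in MI prednisone hearts. The vehicle groups overlapped fully, and the 3 MI prednisone hearts lay below all 9 others. Under vehicle the MI effect was 0.00 (SE 0.15, limma adjusted p = 0.983), and after rescaling it was -0.38 (adjusted p = 0.0921). Under prednisone Adrb1 was lower in MI than in sham hearts by -0.56 (SE 0.15, adjusted p = 0.0247), and by -0.47 after rescaling (adjusted p = 0.0250). This call was lost when sham prednisone replicate 2 or 3 or MI prednisone replicate 1 or 2 was left out (adjusted p from 0.0678 to 0.107). Prednisone against vehicle in MI gave -0.38 (adjusted p = 0.0598) and 0.01 after rescaling (adjusted p = 0.946), so no difference between treatments within MI was shown for this receptor.

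Adra1a (chr14:66635251-66771168, plus strand) encodes the alpha-1A receptor. Its TPM was 5.99, 5.93 and 7.42 in sham vehicle hearts and 6.06, 5.75 and 5.36 in sham prednisone hearts. MI vehicle hearts had 5.11, 4.27 and 4.26, and MI prednisone hearts 1.51, 1.33 and 2.39. All 6 MI hearts were below all 6 sham hearts, and the MI prednisone hearts were below every MI vehicle heart. Under prednisone the gene fell by 1.31 on the log2 scale from sham to MI (SE 0.16, adjusted p = 0.00124; -1.25 and adjusted p = 0.00399 after rescaling). Under vehicle the MI effect was -0.42 (SE 0.16) and missed the threshold as deposited (adjusted p = 0.0823), while after rescaling it was -0.78 and called (adjusted p = 0.0493). Within MI, Adra1a was lower with prednisone by -1.03 (SE 0.16, adjusted p = 0.00156; -0.69 and adjusted p = 0.0318 after rescaling). With the relation to transcript length subtracted from each library, that last difference was -0.45 and not called (adjusted p = 0.164).

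Adra1b (chr11:43774606-43901210, minus strand) encodes the alpha-1B receptor. Its TPM was 16.9, 19.4 and 13.9 in sham vehicle hearts and 19.8, 15.2 and 18.4 in sham prednisone hearts. MI vehicle hearts had 10.5, 8.80 and 7.41, and MI prednisone hearts 6.48, 4.84 and 10.3. The highest MI heart (10.5) was below the lowest sham heart (13.9), while the 2 MI groups overlapped. Adra1b was lower after MI under vehicle by -0.84 (SE 0.23, adjusted p = 0.0361) and under prednisone by -1.24 (SE 0.23, adjusted p = 0.00515). After rescaling these values were -1.23 (adjusted p = 0.0331) and -1.15 (adjusted p = 0.0152). The call under vehicle was lost on leaving out sham vehicle replicate 1, 2 or 3 or MI vehicle replicate 2 or 3 (adjusted p from 0.0576 to 0.109, with changes from -0.96 to -0.73), and with the replicate block (adjusted p = 0.0607). Prednisone against vehicle in MI gave -0.31 (adjusted p = 0.291) and 0.09 after rescaling, a change of sign without a call. Over all genes, 1.87% had all 6 MI libraries below all 6 sham libraries, which among these 9 genes were the 2 alpha-1 receptors. After rescaling, when 5.22% of all genes had this order, Adrb1, Adcy5, Adcy6 and Pde4d joined them.

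Grk2 and Grk5 encode the GRKs that are abundant in heart. Grk2 (chr19:4286001-4306222, minus strand) had 24.1, 27.2 and 21.5 TPM in sham vehicle hearts and 21.7, 22.7 and 29.0 in sham prednisone hearts. It had 22.5, 26.6 and 77.2 TPM in MI vehicle hearts, and 22.1, 22.6 and 21.7 in MI prednisone hearts. Apart from MI vehicle replicate 3, the library that stood apart, all values lay between 21.5 and 29.0, and no comparison called the gene. Its MI effect under vehicle was 0.56 (SE 0.35, adjusted p = 0.219) and 0.13 after rescaling.

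Grk5 (chr19:60889749-61095968, plus strand) had 8.71, 9.38 and 8.85 TPM in sham vehicle hearts and 13.4, 11.6 and 12.8 in sham prednisone hearts. It had 12.3, 20.7 and 17.8 TPM in MI vehicle hearts and 10.5, 8.56 and 10.1 in MI prednisone hearts. The order of the groups thus ran in opposite directions in the 2 treatments: every MI vehicle heart was above every sham vehicle heart, and every MI prednisone heart was below every sham prednisone heart. Grk5 was the 1 gene of the 9 that was called higher after MI under vehicle, by 0.82 (SE 0.17, adjusted p = 0.0149). Within MI it was lower with prednisone by -0.72 (SE 0.17, adjusted p = 0.00752), and the interaction, the difference between the prednisone effects in MI and in sham hearts, was -1.16 (SE 0.23, adjusted p = 0.0106). Rescaling ended these 3 calls, with 0.41 (adjusted p = 0.151), -0.29 (adjusted p = 0.221) and -0.66 (adjusted p = 0.1). Leaving out sham vehicle replicate 1 or 3 also ended the first (adjusted p of 0.0661 and 0.0747). Under prednisone the MI effect was -0.35 (adjusted p = 0.184; -0.25 after rescaling). In sham hearts the prednisone effect of 0.45 had an unadjusted p of 0.0203 and an adjusted p of 1.

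Adcy5 and Adcy6 encode the 2 adenylyl cyclases that are best known in cardiomyocytes. Adcy5 (chr16:35154877-35305738, plus strand) had 10.6, 12.4 and 11.7 TPM in sham vehicle hearts and 11.9, 12.2 and 14.3 in sham prednisone hearts. It had 11.8, 13.2 and 12.7 TPM in MI vehicle hearts and 8.17, 7.31 and 10.3 in MI prednisone hearts. The MI prednisone hearts were below the other 9, which overlapped. Adcy5 was lower by -0.53 against sham prednisone (SE 0.13, adjusted p = 0.0212) and by -0.51 against MI vehicle (SE 0.13, adjusted p = 0.0134). After rescaling these were -0.44 (adjusted p = 0.0752) and -0.09 (adjusted p = 0.697), and neither was called. With transcript length corrected for (transcripts matched without their version number), the difference from MI vehicle turned to 0.18 and the interaction to 0.17. As deposited, the first was also lost without sham prednisone replicate 2 or 3 or MI prednisone replicate 1 or 2 (adjusted p from 0.0572 to 0.0953), and the second without MI prednisone replicate 2 (adjusted p = 0.0529).

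Adcy6 (chr15:98589973-98610076, minus strand) had 24.0, 26.5 and 27.3 TPM in sham vehicle hearts and 27.4, 28.1 and 28.5 in sham prednisone hearts. It had 24.2, 21.9 and 25.3 TPM in MI vehicle hearts and 17.6, 19.5 and 21.9 in MI prednisone hearts. Under prednisone every MI heart was below every sham heart, with a fall of 0.49 (the change was -0.49, SE 0.11, adjusted p = 0.0108) that was -0.39 after rescaling (adjusted p = 0.0672). Leaving out MI prednisone replicate 1 also ended this call (adjusted p = 0.0573). Under vehicle the MI effect was -0.12 (adjusted p = 0.379), and -0.54 after rescaling, where it was called (adjusted p = 0.0463). Within MI the prednisone effect depended on the scale in sign: it was -0.27 as deposited (adjusted p = 0.0712), 0.17 after rescaling (adjusted p = 0.390), and 0.41 with a call (adjusted p = 0.0378) once transcript length was corrected for. An antisense gene, Gm29331, overlaps exons of Adcy6. The libraries are stranded, but whether the quantification used the strand is not given in the sources used here.

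Pde4d (chr13:108449948-109953461, plus strand) encodes phosphodiesterase 4D, which degrades cyclic AMP close to receptors and calcium channels. Its TPM was 7.50, 8.56 and 6.76 in sham vehicle hearts and 8.73, 9.07 and 8.84 in sham prednisone hearts. It was 7.27, 6.80 and 10.6 in MI vehicle hearts and 3.36, 4.29 and 4.93 in MI prednisone hearts. The MI prednisone hearts were below all 9 others without overlap. Pde4d was lower by -0.94 against sham prednisone (SE 0.17, adjusted p = 0.00504; -0.86 and adjusted p = 0.00251 after rescaling). Against MI vehicle it was lower by -0.82 (SE 0.17, adjusted p = 0.00502; -0.42 and adjusted p = 0.0245 after rescaling), and by -0.32 without a call when length was corrected for (adjusted p = 0.0762). Under vehicle MI gave 0.08 (adjusted p = 0.703), and -0.31 after rescaling.

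Rgs2 (chr1:143999338-144004161, minus strand) encodes a regulator that shortens Gq signals. It had 14.99, 16.4 and 13.9 TPM in sham vehicle hearts and 15.8, 12.2 and 14.7 in sham prednisone hearts. It had 15.1, 11.4 and 26.5 TPM in MI vehicle hearts and 9.20, 17.8 and 10.4 in MI prednisone hearts. The groups overlapped in each of the 4 comparisons between them, and no comparison called the gene. Its largest deposited difference was -0.44 (SE 0.28, adjusted p = 0.230), for prednisone against vehicle in MI.

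**Figure D2:**
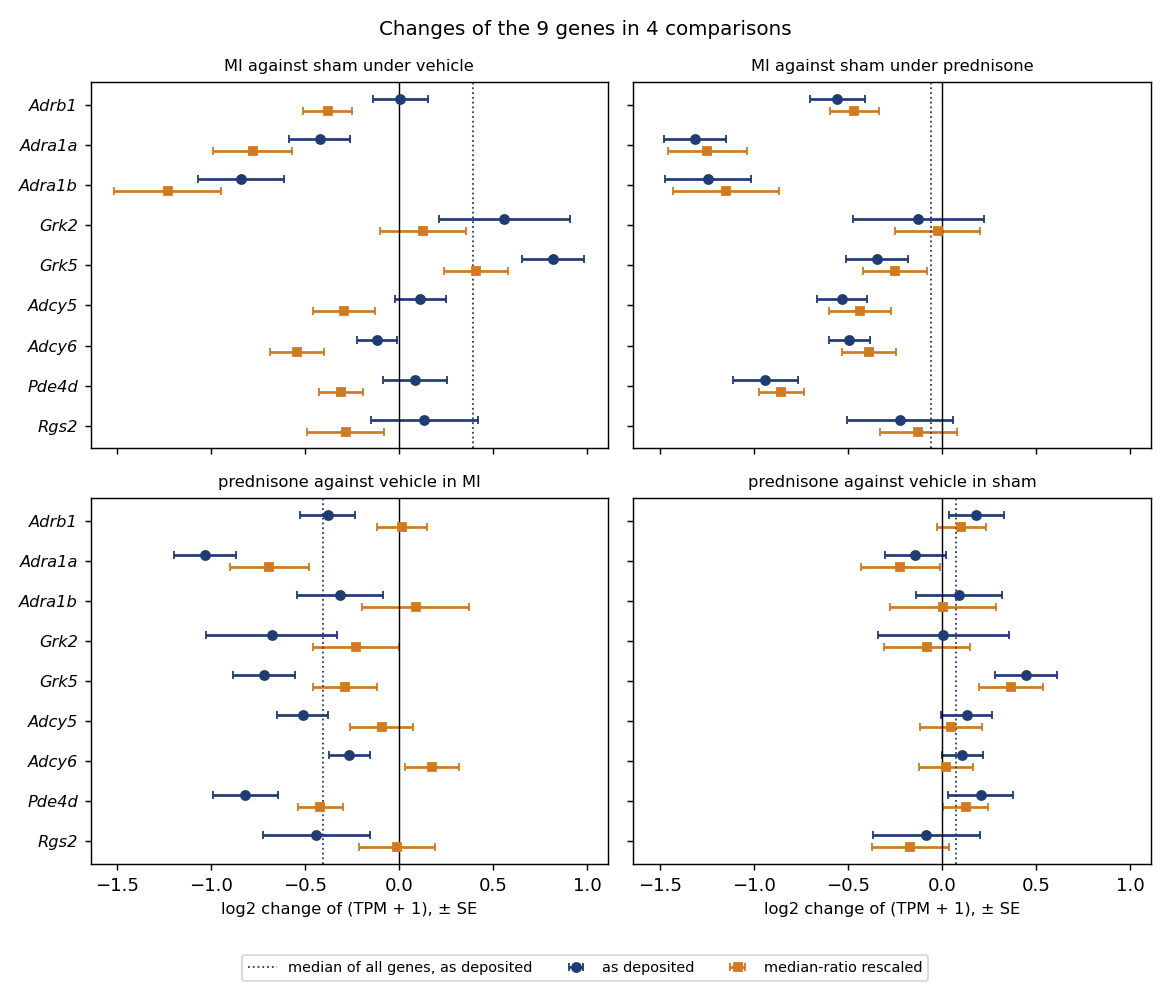
Change of log2(TPM + 1) with its SE for the 9 genes in 4 comparisons, from the deposited values (circles) and after median-ratio rescaling (squares); the dotted line is the median of all tested genes as deposited. Adra1a and Adra1b lie left of zero on both scales in both MI comparisons, while the circles for prednisone in MI spread around a median of all genes of -0.41.

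Read over the 9 genes, MI under vehicle called 1 higher and 1 lower, where 15.1% of all tested genes were called higher and 0.904% lower. After rescaling 3 of the 9 were called, all lower (Adra1a, Adra1b and Adcy6), where 7.44% of all genes were called in either direction. The median change of the 9 genes was 0.08, against 0.39 over all genes. Leaving out sham vehicle replicate 1 or 3 left 0 of 9 called, and leaving out sham vehicle replicate 2 or MI vehicle replicate 2 or 3 left 1.

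Under prednisone MI called 6 of the 9 lower (Adrb1, Adra1a, Adra1b, Adcy5, Adcy6 and Pde4d) and 0 higher, where 14.1% of all genes were called lower and 2.73% higher. After rescaling 4 of the 6 were called (Adrb1, Adra1a, Adra1b and Pde4d), where 26.0% of all genes were called. All 9 changes were below zero, with a median of -0.53 against -0.06 over all genes. Without MI prednisone replicate 1, 3 of the 9 were called. Adra1a, Adra1b and Pde4d were called with transcript length corrected for as well.

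Prednisone within MI called 4 of the 9 lower (Adra1a, Grk5, Adcy5 and Pde4d), where 34.9% of all genes were called lower and 2.50% higher. The median of the 9 was -0.51, near the -0.41 of all genes, and after rescaling 2 of the 9 were called (Adra1a and Pde4d), where 28.8% of all genes were. The share called was thus close to that of all genes on the deposited scale, and below it after rescaling.

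In sham hearts limma called 0 of the 9 for prednisone, as deposited and after rescaling, and for 1 of them, Grk5, p was under 0.05 before adjustment. Few genes were called at all, with 0.0532% higher and 0.0608% lower as deposited and 0.122% in either direction after rescaling. The median of the 9 was 0.11, against 0.07 over all genes.

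The interaction called 4 of the 9, each lower, where 20.7% of all genes were called lower and 0.540% higher. Its values were -0.89 for Adra1a (adjusted p = 0.0232), -1.16 for Grk5, -0.64 for Adcy5 (adjusted p = 0.0363) and -1.02 for Pde4d (adjusted p = 0.0169). The median of the 9 was -0.64 against -0.48 over all genes. After rescaling, where 10.1% of all genes were called, limma called 0 of the 9, and for 2 of them p was under 0.05 before adjustment. Leaving out sham vehicle replicate 1 or 3, sham prednisone replicate 1 or 2, or MI prednisone replicate 1 or 2 left 2 of 9. The comparisons share samples: MI vehicle hearts enter both MI under vehicle and prednisone in MI, MI prednisone hearts enter both MI under prednisone and prednisone in MI, and the interaction uses all 4 groups.

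Ratios between genes within a library are not moved by its scale, but a relation of values to transcript length can move them. They are given as a description, without a test. The ratio of Adra1a to Adra1b was 0.354, 0.306 and 0.535 in sham vehicle hearts and 0.306, 0.380 and 0.291 in sham prednisone hearts. It was 0.487, 0.485 and 0.575 in MI vehicle hearts, and 0.232, 0.275 and 0.231 in MI prednisone hearts. The MI groups did not overlap, with the prednisone hearts below all 9 others. The MI prednisone libraries are also those in which values were related to transcript length. The mean length, weighted by abundance, was 3768 bases for Adra1a and 2435 for Adra1b. The part of that relation in this ratio was not tested.

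The ratio of Adrb1 to the sum of Adra1a and Adra1b ran from 0.274 to 0.392 over the 6 sham hearts and from 0.393 to 0.719 over the 6 MI hearts. The ranges did not overlap, but the lowest MI heart (MI vehicle replicate 1, 0.393) and the highest sham heart (0.392) were almost level. The ratio of Grk2 to Grk5 was 2.77, 2.90 and 2.43 in sham vehicle hearts, 1.62, 1.96 and 2.26 in sham prednisone hearts, 1.82, 1.29 and 4.34 in MI vehicle hearts and 2.11, 2.64 and 2.14 in MI prednisone hearts. MI vehicle replicate 3 was the highest of all 12 there and replicate 2 the lowest. The ratio of Adcy5 to Adcy6 stayed between 0.375 and 0.602, with the 2 extremes in MI prednisone replicate 2 and MI vehicle replicate 2.

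**Figure D3:**
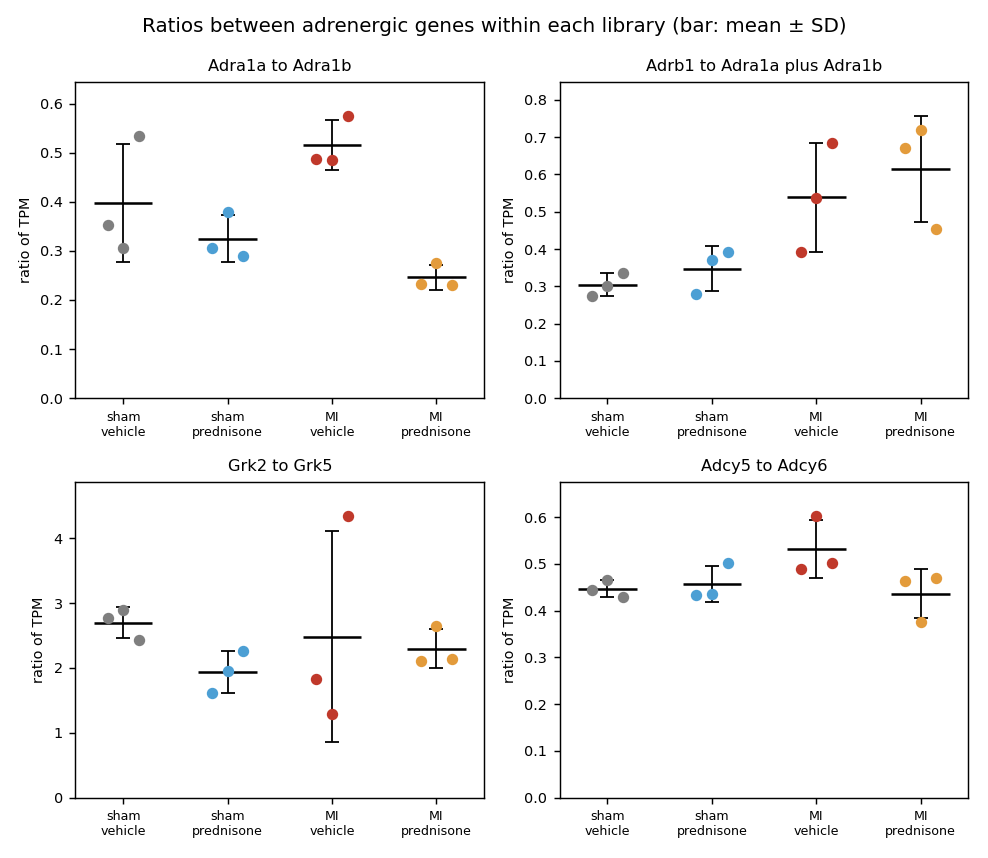
Ratio of TPM between adrenergic genes within each of the 12 libraries, by group; points are single mice, and the line and bar are the mean ± SD of 3 mice. Adra1a to Adra1b is lowest in the MI prednisone hearts, at 0.231 to 0.275, and Adrb1 to the alpha-1 sum is higher in the 6 MI hearts than in the 6 sham hearts.

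The table gives transcripts, and 47 belong to the 9 genes. Of these, 20 passed the same filter and 9 were listed at 0 in every library. Adrb1, Grk5, Adcy5 and Adcy6 each had a single transcript in the table. Among the 20, limma called 3 for MI under vehicle, 10 for MI under prednisone, 9 for prednisone in MI, 0 for prednisone in sham (1 with an unadjusted p under 0.05) and 4 for the interaction. Adra1b-202 and Adra1b-204 have identical sequences and values but are counted separately in the 20. They are also counted separately in the calls for MI under vehicle and MI under prednisone. Over all 27769 transcripts tested the shares called were 2.84%, 22.3%, 33.0%, 0.0540% and 18.7%.

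RefSeq gives Adra1b 2 starts, whose promoters differ in composition. The 250 bases before each RefSeq start (GRCm38.p6) are shown because the transcripts that begin near the 2 starts differed in 2 libraries; both are on the minus strand and written 5′ to 3′, with CpG dinucleotides in capitals. The upstream promoter is chr11:43901238-43901487 and the downstream promoter is chr11:43836490-43836739.
Adra1b upstream: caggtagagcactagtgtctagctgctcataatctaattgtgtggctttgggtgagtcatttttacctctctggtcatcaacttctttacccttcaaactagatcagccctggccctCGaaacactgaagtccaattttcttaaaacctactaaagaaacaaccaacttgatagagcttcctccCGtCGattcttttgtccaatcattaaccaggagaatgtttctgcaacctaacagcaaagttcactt
Adra1b downstream: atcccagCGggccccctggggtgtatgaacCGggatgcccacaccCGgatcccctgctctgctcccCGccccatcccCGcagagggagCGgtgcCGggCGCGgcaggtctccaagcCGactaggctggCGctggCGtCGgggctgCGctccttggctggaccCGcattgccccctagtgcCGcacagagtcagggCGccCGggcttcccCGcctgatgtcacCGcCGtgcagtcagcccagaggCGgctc
The upstream promoter has 3 CpG dinucleotides and 41.6% G and C, and the downstream promoter has 22 and 72.8%. The median over 32851 RefSeq promoters of this length was 6 CpG dinucleotides and 52.4% G and C.

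Adra1b-203 starts at position 43901210 in GENCODE M21, near the upstream RefSeq start at 43901237. It had 8.96, 10.6 and 6.42 TPM in sham vehicle hearts, 9.84, 6.94 and 10.1 in sham prednisone hearts and 5.54, 4.80 and 3.72 in MI vehicle hearts. In MI prednisone hearts it had 0.706 TPM, was listed at 0, and had 4.91 TPM. Its share of the gene lay between 45.8% and 54.7% in the 9 other libraries, and was 10.9%, 0% and 47.6% in the MI prednisone libraries. By these estimates MI prednisone replicates 1 and 2 held little or none of it, and replicate 3 resembled the other groups in this share. The estimates divide reads that the Adra1b transcripts share over part of their length. Replicates 1 and 2 also had the strongest relation of values to transcript length, with correlations of -0.39 and -0.40, against -0.26 in replicate 3. A negative correlation means lower values for longer transcripts. Adra1b-203 has 1764 bases, and Adra1b-202 and Adra1b-204 have 3047 each. The part of that relation in the share of Adra1b-203 was not tested. It was called for MI under prednisone at -2.19 (SE 0.50, adjusted p = 0.00985), and not for prednisone within MI (-1.38, adjusted p = 0.0534). After rescaling the call for MI under prednisone remained, at -2.11 (adjusted p = 0.0162).

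Adra1b-202 and Adra1b-204 start at position 43836332, near the downstream RefSeq start at 43836489. They end at 43774606 and Adra1b-203 ends at 43776023, so these transcripts differ at both ends. Adra1b-201, which has the start of Adra1b-203 and the end of Adra1b-202 and Adra1b-204, was listed at 0 in every library. Their sequences of 3047 bases are identical, so the table lists the same value for each and the pair is given as a sum. The sum was 7.96, 8.80 and 7.46 TPM in sham vehicle hearts, 10.0, 8.22 and 8.35 in sham prednisone hearts, 4.96, 4.002 and 3.69 in MI vehicle hearts and 5.78, 4.84 and 5.41 in MI prednisone hearts. All 6 MI hearts were below all 6 sham hearts, and here the MI prednisone hearts were not the lower of the MI groups. Each of the pair was called lower after MI under vehicle (-0.70, SE 0.15, adjusted p = 0.0377) and under prednisone (-0.56, SE 0.15, adjusted p = 0.0208), and for prednisone within MI each had 0.24 (adjusted p = 0.232). After rescaling the first call remained (-0.96, adjusted p = 0.0448) and the second did not (-0.46, adjusted p = 0.0627). The call under vehicle did not hold with the replicate block or on leaving out sham vehicle replicate 1, 2 or 3 or MI vehicle replicate 2 or 3, when 0 of the 20 transcripts were called.

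Grk2 summed to much the same TPM in both prednisone groups, but its transcripts did not. Grk2-201 had 0.0762, 0.323 and 1.38 TPM in sham vehicle hearts and was listed at 0, 0 and 0.164 in sham prednisone hearts. It had 3.14 and 0.617 TPM in MI vehicle replicates 1 and 2 and 4.36e-06 TPM in replicate 3. In MI prednisone hearts it had 8.62, 11.9 and 3.95 TPM, or 38.9%, 52.5% and 18.2% of the gene, above all 9 other libraries, whose highest share was 14%. Outside the MI prednisone hearts, only sham vehicle replicate 3 and MI vehicle replicate 1 reached 1 TPM. Grk2-201 thus passed the filter only through the group in which it was high, and its calls are given as a description. It was higher by 3.01 against sham prednisone (SE 0.51, adjusted p = 0.00210) and by 2.17 against MI vehicle (SE 0.51, adjusted p = 0.00863). Its interaction was 2.69 (adjusted p = 0.0272). After rescaling these calls remained, at 3.12 (adjusted p = 0.00180), 2.33 (adjusted p = 0.00752) and 2.87 (adjusted p = 0.0264).

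Grk2-202, the main transcript, had 18.3, 20.2 and 17.9 TPM in sham vehicle hearts, 19.9, 21.5 and 23.1 in sham prednisone hearts, 17.3, 23.9 and 60.3 in MI vehicle hearts and 11.04, 7.08 and 15.9 in MI prednisone hearts. It was lower with prednisone in MI by -1.36 (SE 0.38, adjusted p = 0.0188), and by -0.93 after rescaling (adjusted p = 0.0443). Without MI vehicle replicate 3, the library at 60.3 TPM, the difference was -0.85 (adjusted p = 0.0369), and without MI prednisone replicate 2 it was -1.09 and not called (adjusted p = 0.0752). In GENCODE M21 the 2 transcripts differ at the 5′ end: Grk2-201 has an extra exon of 72 bases, exon 2 at chr19:4305122-4305193, that lies outside its coding sequence, and Grk2-202 has a first exon of 321 bases against 54, which begins 267 bases further upstream. Their annotated coding sequences differ too, with 1941 bases in Grk2-201 and 2067 in Grk2-202. The values of both are estimates from reads that the transcripts share over most of their length. The MI prednisone libraries are also those in which values were related to transcript length, and the part of that relation in the split between the 2 transcripts was not tested.

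**Figure D4:**
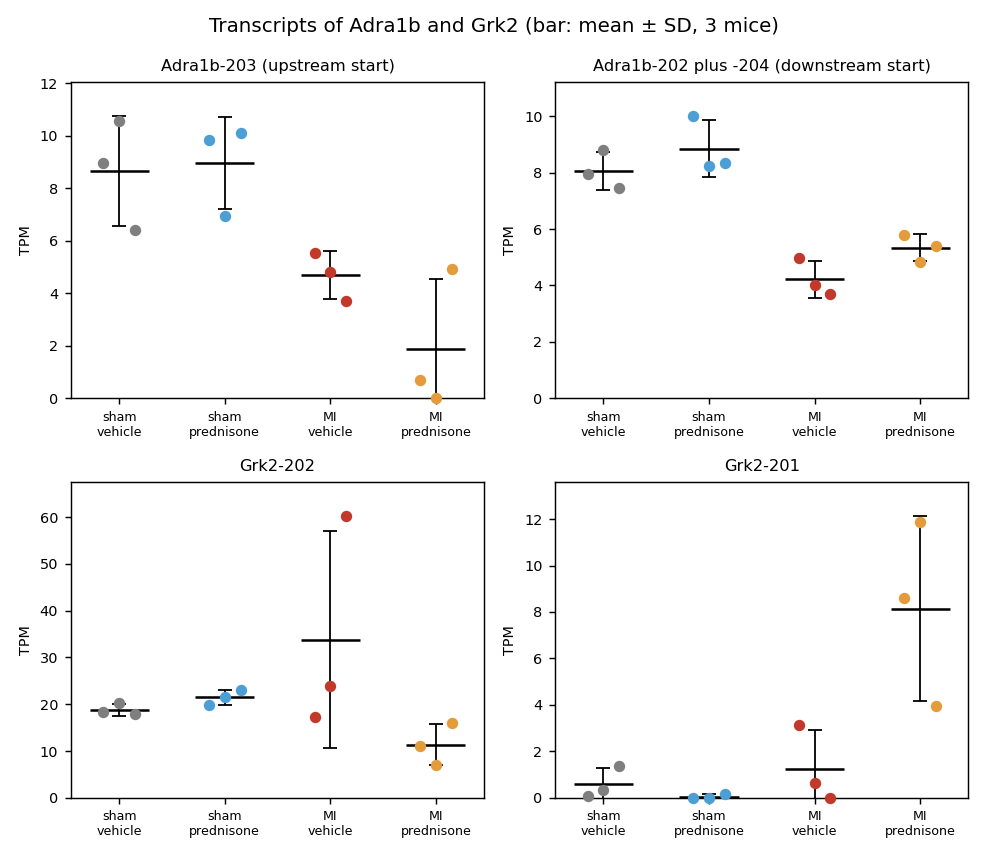
TPM of the Adra1b transcripts of the upstream and downstream start and of Grk2-202 and Grk2-201 in each library, by group; points are single mice, and the line and bar are the mean ± SD of 3 mice, with bars ended at 0. Adra1b-203 is near 0 in 2 of the 3 MI prednisone hearts, the downstream sum is lower in all 6 MI hearts, and Grk2-201 is highest in the MI prednisone hearts, at 3.95 to 11.9 TPM.

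Of the other transcripts, Pde4d-207, which held 47.1% of the gene, was lower by -1.14 for MI under prednisone (adjusted p = 0.00401) and by -0.95 for prednisone in MI (adjusted p = 0.00775), with an interaction of -1.08 (adjusted p = 0.0344). After rescaling the changes for MI under prednisone and prednisone in MI were called (-1.05, adjusted p = 0.00222; -0.62, adjusted p = 0.0257) and the interaction was not (adjusted p = 0.0989). Pde4d-211, a transcript with no coding sequence annotated, moved the other way for prednisone in MI, at 0.60 (adjusted p = 0.0421), and at 0.74 after rescaling (adjusted p = 0.0170). It was low, with a mean of 0.543 TPM in MI vehicle hearts and 1.30 in MI prednisone hearts. It reached 1 TPM only in the prednisone groups, so it passed the filter only through the groups in which it was high. Its call is therefore given as a description. As deposited the change was 0.42 and not called without MI vehicle replicate 3 (adjusted p = 0.0900). The call was also lost without any other single MI library except MI vehicle replicate 1. Adra1a-203 was lower by -0.995 for MI under prednisone (adjusted p = 0.00262) and by -1.09 for prednisone in MI (adjusted p = 0.00137), and Adra1a-205 by -0.82 (adjusted p = 0.0301) and -0.71 (adjusted p = 0.0409). After rescaling, of these 4 calls, only the last was lost (-0.48, adjusted p = 0.140), while both calls of Adra1a-205 were also lost on leaving out single mice (adjusted p up to 0.105 and 0.117). Adra1a-201, which held 16.4% of the gene, was not called. It changed by -0.72 for MI under prednisone (limma adjusted p = 0.161) and by 0.37 for prednisone in MI (adjusted p = 0.427). Its share of the gene ran from 0% to 33.9% between libraries. Rgs2-201, annotated as a target of nonsense-mediated decay, had 3.70, 4.57 and 7.601 TPM in MI vehicle hearts, and in MI prednisone hearts it was listed at 0, 2.78 and 1.93. Its difference for prednisone in MI was -1.45 (adjusted p = 0.0361), and -0.87 without a call when MI prednisone replicate 1, the library at 0, was left out (adjusted p = 0.116). The call was also lost after rescaling (-1.12, adjusted p = 0.0967).

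Promoters of 6 of the 9 genes were in the RefSeq table, in 7 windows. Those of Adrb1 and Adcy5 are printed because these 2 genes had the most similar values over the 12 libraries of any pair among the 9 (Pearson r = 0.925, a description over libraries that share their scale). The Adrb1 window is chr19:56721867-56722116 and the Adcy5 window chr16:35154614-35154863, both on the plus strand, with CpG dinucleotides in capitals.
Adrb1: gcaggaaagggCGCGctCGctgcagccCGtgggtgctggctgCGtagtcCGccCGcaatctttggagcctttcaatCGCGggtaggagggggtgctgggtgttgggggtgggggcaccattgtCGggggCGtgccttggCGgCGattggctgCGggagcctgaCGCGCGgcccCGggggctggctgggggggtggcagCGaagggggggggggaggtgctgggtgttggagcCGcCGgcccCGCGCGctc
Adcy5: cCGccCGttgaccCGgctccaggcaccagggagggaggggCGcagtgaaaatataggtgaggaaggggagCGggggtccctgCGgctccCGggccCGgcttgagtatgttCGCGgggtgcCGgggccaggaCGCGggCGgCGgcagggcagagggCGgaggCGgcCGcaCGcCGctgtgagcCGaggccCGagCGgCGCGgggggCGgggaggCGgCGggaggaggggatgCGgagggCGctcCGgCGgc
Adrb1 has 24 CpG dinucleotides and 74% G and C, and Adcy5 has 32 and 78%. Rgs2 has 30, Grk5 has 13 and Pde4d has 1. In the 7 windows, extended to 50 bases past the start, a search of both strands found 0 matches to the E-box CACGTG, to the cyclic AMP response element TGACGTCA, to the D-box TTATGTAA or to the glucocorticoid receptor half-site AGAACA. Of all 32851 promoters, 7.15%, 1.79%, 0.938% and 19% held these letters.

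The genes outside the 9 whose log2(TPM + 1) was most like that of Adrb1 over the 12 libraries, among those with a mean of at least 5 TPM, were Rbpms (Pearson r = 0.972, Spearman rho = 0.951), Clpb (0.965 and 0.937) and Timm29 (0.965 and 0.958). Rbpms encodes an RNA-binding protein of muscle, and Clpb and Timm29 encode mitochondrial proteins. The lowest correlation among the 9 was between Adra1b and Grk2, at -0.20.

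A list of 96 genes of the adrenergic pathway, which includes the 9, put them in context; 85 passed the filter. MI under vehicle called 15 higher and 3 lower, or 21.2%, beside 15.1% higher and 0.904% lower over all genes (6 and 6 after rescaling), and 10 in all without MI vehicle replicate 3. MI under prednisone called 2 higher and 28 lower, or 35.3%, beside 2.73% and 14.1% over all genes (8 and 22 after rescaling). Prednisone in MI called 2 higher and 33 lower, or 41.2%, beside 2.50% and 34.9% over all genes (8 and 14 after rescaling). The interaction called 2 higher and 28 lower, or 35.3%, beside 0.540% and 20.7% over all genes (4 and 7 after rescaling). In sham hearts limma called 0 of 85, where 0.0532% of all genes were called higher and 0.0608% lower. For 4 of the 85 p was under 0.05 before adjustment. After rescaling, the share of all genes called in either direction was 7.44% for MI under vehicle and 26.0% for MI under prednisone. It was 28.8% for prednisone in MI and 10.1% for the interaction. The median of the 85 was 0.35, -0.21, -0.45, 0.11 and -0.58 in the order MI under vehicle, MI under prednisone, prednisone in MI, prednisone in sham and interaction, where that of all genes was 0.39, -0.06, -0.41, 0.07 and -0.48.

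Of the receptors outside the 9, Adra1d and Adrb3 passed the filter, and neither was called in any comparison, as deposited or after rescaling. Adra1d, the alpha-1D receptor, ran from 0.865 to 2.58 TPM with overlapping groups.

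Adrb3, the beta-3 receptor, which is abundant in adipocytes, varied widely within groups. It had 3.93, 6.55 and 0.299 TPM in sham vehicle hearts, 2.26, 2.23 and 2.34 in sham prednisone hearts, 11.8, 0.483 and 19.3 in MI vehicle hearts and 6.94, 27.4 and 6.18 in MI prednisone hearts. The summed TPM of 5 adipocyte markers, none of which was at 0 in any group, was 910, 1076 and 573 in sham vehicle hearts, 691, 673 and 787 in sham prednisone hearts, 1458, 639 and 2881 in MI vehicle hearts and 1220, 2400 and 968 in MI prednisone hearts. The 2 libraries with the highest Adrb3 were also the 2 highest in this sum, and MI vehicle replicate 2 had the lowest value of both among the MI hearts. The part of adipocyte RNA in the Adrb3 values was not tested. The alpha-2 receptors Adra2a, Adra2b and Adra2c did not pass the filter, with at most 0.266 TPM in any library.

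Among the steps after the receptors, 11 of the 16 tested genes of protein kinase A and its anchors had a lower interaction, 8 were lower after MI under prednisone and 10 with prednisone in MI, and none was higher in those 3. Over all genes 20.7%, 14.1% and 34.9% were called lower in these. After rescaling the lower calls numbered 2, 7 and 5, with 1 higher for prednisone in MI, where 10.1%, 26.0% and 28.8% of all genes were called in either direction. Prkar2a, the regulatory subunit RII alpha, changed by -1.50 for MI under prednisone (adjusted p = 0.00121) and by -1.31 for prednisone in MI (adjusted p = 0.000964), and after rescaling by -1.40 (adjusted p = 0.00256) and -0.88 (adjusted p = 0.00943). Its TPM was 21.6 to 28.8 in sham hearts, 24.8, 20.8 and 27.6 in MI vehicle hearts and 9.02, 6.75 and 12.5 in MI prednisone hearts. Pkia, an inhibitor of protein kinase A, changed by -1.64 for MI under prednisone (adjusted p = 0.00224; -1.53 and 0.00933 after rescaling), and Akap13, an anchoring protein, by -1.74 for prednisone in MI (adjusted p = 0.000867; -1.32 and 0.000628 after rescaling). Rescaling does not remove a relation to transcript length, and the part of that relation in these changes was not tested.

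Adcy9, a further adenylyl cyclase, changed by -1.57 for MI under prednisone (adjusted p = 0.00141) and by -1.33 for prednisone in MI (adjusted p = 0.00146), and after rescaling by -1.52 (adjusted p = 0.00251) and -0.99 (adjusted p = 0.00781). It had 0.876, 0.726 and 2.08 TPM in MI prednisone hearts, against 3.88 to 5.96 in the other 9. Phosphodiesterases had 6 of 14 lower after MI under prednisone and 1 higher, Pde9a at 0.78 (adjusted p = 0.0277; 0.87 and 0.00684 after rescaling), which degrades cyclic GMP. Over all genes 14.1% were called lower and 2.73% higher for MI under prednisone. After rescaling 5 of the 14 phosphodiesterases were lower and 2 higher there, where 26.0% of all genes were called in either direction. For prednisone in MI, 6 of 14 were lower and 0 higher, beside 34.9% lower and 2.50% higher over all genes. After rescaling 3 were lower and 2 higher, where 28.8% of all genes were called in either direction. The part of the relation to transcript length in the changes of Adcy9 and the phosphodiesterases was not tested.

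Of 7 substrates of protein kinase A, 2 were higher and 0 lower with prednisone in MI, as deposited and after rescaling, while MI under prednisone called 1 higher and 3 lower (0 and 1 after rescaling). Over all genes 2.50% were called higher and 34.9% lower for prednisone in MI, and 2.73% and 14.1% for MI under prednisone. After rescaling 28.8% and 26.0% of all genes were called in either direction in these 2 comparisons. Tnni3, cardiac troponin I, was lower after MI under vehicle by -0.52 (adjusted p = 0.0318; -0.97 and 0.0380 after rescaling) and higher with prednisone in MI by 0.73 (adjusted p = 0.00307; 1.19 and 0.00540 after rescaling). Fxyd1, phospholemman, was higher with prednisone in MI by 0.51 (adjusted p = 0.00506) and after MI under prednisone by 0.35 (adjusted p = 0.0450, and 0.0909 after rescaling). The part of the relation to transcript length in these changes of the MI prednisone hearts was not tested. Cacna1c, the L-type calcium channel, was lower after MI under vehicle by -0.40 (adjusted p = 0.0436; -0.82 and 0.0375 after rescaling).

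Under vehicle the largest rises among the called genes of the list were Rgs10 at 1.27 (adjusted p = 0.0368, and 0.0569 after rescaling), Adcy7 at 1.25 (adjusted p = 0.0140) and Prkcd at 1.17 (adjusted p = 0.0287), which encode a regulator of G proteins, an adenylyl cyclase and protein kinase C delta. In each, MI vehicle replicate 3 was the highest of the 12 libraries, with 56.2, 10.4 and 24.5 TPM.

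Cell type markers moved with some of these groups. The summed TPM of 6 fibroblast markers was 365 to 497 in sham hearts, 887 to 1190 in MI vehicle hearts and 323 to 560 in MI prednisone hearts, and 6 of 6 were called higher for MI under vehicle. That of 7 cardiomyocyte markers was 29288 to 34997 in sham hearts, 20940 to 25983 in MI vehicle hearts and 30956 to 34036 in MI prednisone hearts, with 3 of 7 called lower for MI under vehicle and 2 of 7 for MI under prednisone (median -0.29). That of 5 macrophage markers was 78.5 to 114 in sham hearts, 149 to 234 in MI vehicle hearts and 81.9 to 162 in MI prednisone hearts, with 5 of 5 higher for MI under vehicle. Over all genes, 15.1% were called higher and 0.904% lower for MI under vehicle, and 14.1% lower for MI under prednisone. No marker of these lists was at 0 in any group. The lower alpha-1 receptor values and the higher Grk5 in MI vehicle hearts stand beside these shifts, whose part in them was not tested. In the MI prednisone hearts, where Adrb1, Adra1a, Adcy5 and Pde4d were lowest, the cardiomyocyte markers did not move together. Myl2, ventricular myosin light chain and the largest part of the sum, had 13890, 15610 and 12440 TPM, against 11290 to 14070 in sham hearts, while Ryr2, the calcium release channel, had 24.97, 23.05 and 42.63 TPM, against 62.62 to 92.53. In these libraries values were also related to transcript length. For MI under prednisone the median change was 0.28 for genes below 1000 bases and -0.55 above 8000. The part of that relation in the marker values was not tested.

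Of 5 endothelial markers, 4 were called higher for MI under vehicle, 2 lower for MI under prednisone and 2 lower for prednisone in MI. Of 5 markers of smooth muscle and pericytes, 3 were called higher for MI under vehicle, 0 in either direction for MI under prednisone and 2 lower for prednisone in MI. Their summed TPM was 200 to 275 and 196 to 279 in MI vehicle hearts, against 153 to 203 and 163 to 182 in sham hearts and 159 to 176 and 163 to 197 in MI prednisone hearts. Over all genes, 15.1% were called higher for MI under vehicle. For MI under prednisone 2.73% were called higher and 14.1% lower, and for prednisone in MI 34.9% were called lower. The part of endothelial, smooth muscle and pericyte cells in the values of the 9 genes was not tested.

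The summed TPM of 5 atrial markers was 855 to 2709 in sham hearts, 2813 to 4122 in MI vehicle hearts and 4358 to 6191 in MI prednisone hearts. For MI under vehicle 1 of the 5 was called higher, beside 15.1% of all genes, and the median of the 5 changes was -0.77. That 1 was Nppa, atrial natriuretic peptide, with 2050, 2840 and 3228 TPM in MI vehicle hearts against 478.2 to 1464 in sham hearts. For prednisone in MI 3 of the 5 were called higher, beside 2.50% of all genes, with a median of 1.98. The sum was highest in the MI prednisone hearts, where Adrb1 and Adra1a were lowest, and its part in the receptor values was not tested. Th, the enzyme that starts catecholamine synthesis, did not pass the filter, and the summed TPM of 4 markers of sympathetic nerve and chromaffin cells stayed between 0.891 and 3.83 in all groups.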

How the data were processed

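RNA of 12 mouse hearts was sequenced from stranded mRNA libraries, per the labels' protocols. The authors deposited TPM in 1 table of 105129 transcripts, and each library sums to 1000000. The submitters' processing notes name Trimmomatic, HISAT2, kallisto and the build mm10, with no role or version; the annotation release is not given in the sources used here. TPM keeps no depth, so the spread between 3 mice sets the precision. The titles give each sample's group and number.

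The members and lists were chosen with earlier results of these data known. Transcripts were summed to genes by symbol, filtered (at least 1 TPM in 3 of 12 samples) and transformed to log2(TPM + 1), which understates changes of low genes. Linear models with 4 group means were fitted in limma 3.58.1 (R 4.3.3, eBayes with trend) and adjusted within each of 5 comparisons by Benjamini-Hochberg. The smallest two-sided p of an exact permutation test of 3 against 3 is 0.1, and none was run. The fit was tested on simulated data. Named genes were the 9, the adrenergic receptors (1 item of the rule is not reported here), the 3 largest called rises and falls of the pathway list per comparison, and the 3 genes most like Adrb1. Macrophage, adipocyte and other marker lists were described by their sums.

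Coordinates and lengths come from GENCODE M21 (GRCm38), promoters from RefSeq (GRCm38.p6). Of the table's transcripts, 94.7% had their versioned identifier in that release, and 87.4% of tested genes had a length. The single transcripts of Adrb1, Grk5, Adcy5 and Adcy6 matched only without their version, so the length correction (a loess curve, span 0.5, against log10 length) was also run that way, an alternative added after seeing the data. Rescaling, the filter, the pseudocount, the trend, the replicate block, the samples fitted, the most abundant transcript and removal of mitochondrial, nuclear-copy and globin transcripts were the other alternatives. The labels do not say that replicate numbers mark shared litters or days, and same-numbered samples correlated in their deviations at -0.58 to 0.136.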

Additional observations from a re-analysis of the deposited data

Results flagged for a closer look

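The prednisone effect differed between MI and sham hearts by the interaction in limma for 10 genes and 2 transcripts named in the text. Of the 9 genes, these were Adra1a at -0.89, Grk5 at -1.16, Adcy5 at -0.64 and Pde4d at -1.02 on the log2 scale. Of the wider pathway list, they were Adcy9 at -1.50 (limma adjusted p = 0.00970), Akap13 at -1.92 (adjusted p = 0.00673), Prkar2a at -1.57 (adjusted p = 0.00630), Pkia at -1.28 (adjusted p = 0.0282), Tnni3 at 0.67 (adjusted p = 0.0345) and Fxyd1 at 0.49 (adjusted p = 0.0403). The median of all genes was -0.48 in this comparison. After rescaling the calls of Adcy9 (adjusted p = 0.0475), Akap13 (0.00886), Prkar2a (0.0424), Tnni3 (0.0452) and Fxyd1 (0.0360) held, and those of the 4 adrenergic genes and of Pkia (0.328) did not. Rescaling divides a whole library and does not remove a relation to transcript length. The median interaction was -0.04 for genes below 1000 bases and -0.83 above 8000. The part of that relation in the calls that held was not tested. The transcripts were Grk2-201 (ENSMUST00000025791.11) at 2.69 and Pde4d-207 (ENSMUST00000120664.7) at -1.08. Grk2-201 passed the filter only through the MI prednisone hearts, where it was high. After rescaling the call of Grk2-201 held (2.87, adjusted p = 0.0264) and that of Pde4d-207 did not (-0.68, adjusted p = 0.0989). As deposited, both were lost on leaving out single mice, with adjusted p up to 0.0670 and 0.0781.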

How the results depend on the processing

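Depth is unknown, and 3 mice per group limit every call. Adra1a lower after MI under prednisone and Pde4d lower there held under every alternative run. Rescaling left 2 of the 9 genes called for prednisone in MI and 0 for the interaction, and moved the transcripts called to 6 for MI under prednisone and 1 for the interaction. For MI under vehicle, 1 gene was called with no filter, with the replicate block and by the most abundant transcript, and 0 when its own 2 groups were fitted (3 with an unadjusted p under 0.05 in limma); fitting only its groups left 1 for prednisone in MI. The replicate block left 0 transcripts for MI under vehicle. The length correction covered 5 of the 9 genes and left 3 for MI under prednisone, 0 for prednisone in MI and 0 for the interaction (1 with an unadjusted p under 0.05 in each of the last 2 in limma); with the replicate block it left 0 for MI under vehicle, 2, 0 and 0. Matched without version it left 3, 1 and 0. Removing mitochondrial, nuclear-copy and globin transcripts left 2 for the interaction. Leaving out single mice gave 0 to 3 genes for MI under vehicle, 3 to 6 for MI under prednisone, 3 to 6 for prednisone in MI, 0 to 0 for prednisone in sham and 2 to 5 for the interaction, and 0 to 3, 6 to 10, 5 to 11, 0 to 0 and 1 to 7 transcripts. The replicate numbers did not pair the samples; the block changed no other count by over 1.5 times. The cause was not tested.

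Changes of sign were confined to values that were not called as deposited, except Adcy5 for prednisone in MI and for the interaction. By rescaling, MI under vehicle turned to -0.38 for Adrb1, -0.29 for Adcy5, -0.31 for Pde4d and -0.28 for Rgs2, prednisone in MI to 0.015 for Adrb1, 0.088 for Adra1b and 0.17 for Adcy6, prednisone in sham to -0.080 for Grk2, and the interaction to 0.083 for Adra1b, 0.15 for Adcy6 and 0.16 for Rgs2. By the most abundant transcript, Pde4d was -0.063 for MI under vehicle, and Rgs2 was 0.16 for MI under prednisone and 0.13 for the interaction. By the length correction, with and without the replicate block, MI under vehicle was -0.34 for Pde4d and -0.30 for Rgs2, MI under prednisone 0.040 for Grk2, prednisone in MI 0.14 for Adra1b, prednisone in sham -0.075 for Grk2, and the interaction 0.11 for Adra1b and 0.12 for Rgs2. Matched without version, MI under vehicle was -0.42 for Adrb1, -0.25 for Adcy5, -0.34 for Pde4d and -0.30 for Rgs2, and MI under prednisone 0.038 for Grk2 and 0.091 for Grk5. Prednisone in MI was then 0.12 for Adrb1, 0.13 for Adra1b, 0.18 for Adcy5 and 0.41 for Adcy6, prednisone in sham -0.075 for Grk2 and -0.0071 for Adcy6, and the interaction 0.018 for Adrb1, 0.11 for Adra1b, 0.17 for Adcy5, 0.42 for Adcy6 and 0.12 for Rgs2. Without mitochondrial, nuclear-copy and globin transcripts, MI under vehicle was -0.22 for Adrb1, -0.11 for Adcy5, -0.14 for Pde4d and -0.099 for Rgs2, and prednisone in sham -0.069 for Grk2. Leaving out single mice, MI under vehicle ran from -0.079 to 0.089 for Adrb1, -0.094 to 0.19 for Pde4d and -0.19 to 0.39 for Rgs2, and prednisone in sham from -0.031 to 0.20 for Adra1b, -0.12 to 0.088 for Grk2 and -0.16 to 0.016 for Rgs2.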
